A study of Arabidopsis thaliana with 156 samples.

Results

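bZIP44 (AT1G75390, probe set 261114_at) and BZIP61 (AT3G58120, probe set 251575_at) are 2 basic leucine zipper transcription factors of Arabidopsis thaliana. They were taken as every probe set annotated to either symbol, read without regard to case, which gave 1 probe set per gene, or 2 of the 10918 probe sets matched to a single gene and of the 19324 on the arrays analysed. bZIP44 had been picked out by the size of its difference between genotypes in fully expanded leaves, where it ranked 6 among 270 eligible genes (called, with means that differed in the same direction in every pair of groups averaged) that were higher in FRI;flc-3. BZIP61 had been picked out by its fall with leaf position at full expansion (rank 5 of 1695 eligible genes in FRI;FLC, rank 4 of 1685 over both genotypes) and by its fall past full expansion (rank 5 of 1186 over both genotypes). Those comparisons, and contrasts that overlap them in the differences they measure, are therefore given below as descriptions without a p-value. Other contrasts were tested, some of them on the same arrays.

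Basic leucine zipper (bZIP) proteins bind DNA as dimers, through a basic region that contacts the DNA and a zipper of leucines that joins the partners. bZIP44 belongs to group S1 with bZIP1, bZIP2, bZIP11 and bZIP53. These proteins pair preferentially with group C factors and are known from responses to low energy, where the kinase SnRK1 acts. Group S1 transcripts carry upstream reading frames through which sucrose represses translation, so a transcript level does not give the protein level. bZIP44 itself is known as an activator of the mannanase gene MAN7 in germinating seeds. BZIP61 and its close relative BZIP34 form group E, and BZIP34 is known from pollen development.

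All plants were Col-0 carrying the FRI allele of Sf-2 and grew in long days. The groups were FRI;FLC;35S::miR156mimic (the transgene driven by the 35S promoter, 3 arrays), FRI;flc-3 (73 arrays, called the flc-3 mutant below) and FRI;FLC (80 arrays). The controls thus carried the introgressed FRI too. Shoot apices with their primordia of up to 1 mm were collected at days 4, 6, 9 and 11 in both main genotypes, at days 14 and 21 in FRI;FLC alone, and at day 6 in the mimic line. Leaf primordia of 1 mm and fully expanded leaves were collected at positions 1/2, 3, 5, 7, 9 and 11, the expanded leaves in 2 experiments, and leaves 3, 5 and 7 were also taken past full expansion in experiment 2. Leaf 11 was a cauline leaf in FRI;flc-3 and a rosette leaf in FRI;FLC. The primordia came from the same plants as experiment 1, and the apices were collected with experiment 2. Every group had 3 arrays except the day 6 apices, where the flc-3 mutant had 1 array and its control 2. Each array carried pooled RNA of 9 to 120 organs from 3 collection times, so p-values measure the spread between such pools. A higher position was also an older plant (expanded leaves 1/2 at day 14, leaf 9 at days 30 to 33), and position and plant age cannot be told apart. In experiment 1 the expanded leaves 3, 5, 7 and 9 were taken at days 21, 24, 26 and 30 in the flc-3 mutant, against days 23, 26, 29 and 33 in its control, so the mutant plants were 2 to 3 days younger. In experiment 2 leaves 3, 5 and 7 were taken at days 23, 26 and 29 in both genotypes, and leaf 9 at day 32 in the mutant, against day 33. Leaf 11 was taken at day 30 in the mutant, against day 34, in experiment 1, and at day 32, against day 33, in experiment 2.

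Values are log2 signals as deposited, and differences are differences of log2 values with their standard error (SE) from limma, tested over all 19324 probe sets with Benjamini-Hochberg adjustment. The threshold for a call was an adjusted p of 0.05. Array medians lay between 6.40 and 6.92, and the tenth percentile of all values was 2.03. The organs were checked against marker lists. Of the 6 shoot meristem markers only CLV3 was measured, with a median of 2.65 in apices and at most 1.59 in the other organs. Of 4 leaf markers RCA and SBPASE were measured, with medians of 13.01 and 12.60 in expanded leaves. They separated the organs little, with 12.72 and 12.42 in primordia, 12.72 and 12.39 past full expansion, and 11.91 and 11.26 in apices. Of 4 senescence markers SAG29 was measured, with a median of 9.30 in leaves past full expansion and 2.26 in expanded leaves. None of the 6 dividing-cell or 5 flower markers was measured. The arrays also differed in how signal followed gene length. The slope of log2 signal on log2 gene length, over 10857 probe sets of known length, ran from -0.317 to 0.395 in apices, from 0.411 to 0.634 in primordia and from -0.34 to 0.422 in leaves.

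Both genes spanned a wide range. bZIP44 lay between 2.40 and 10.64 over all arrays and BZIP61 between 2.13 and 10.03. The range of the 53 group means was 7.92 for bZIP44, wider than in 97.5% of all probe sets, and 7.49 for BZIP61, wider than in 96.4%. bZIP44 had its highest medians in apices (7.96) and in leaves past full expansion (6.77), and its lowest in primordia (3.20) and expanded leaves (4.04). BZIP61 ran the other way at the last stage, with medians of 7.07 in apices, 6.35 in primordia, 5.70 in expanded leaves and 2.51 past full expansion. Over all group means the correlation between the genes was -0.03 (Pearson's r, 53 groups). It was 0.50 over the 11 apex groups, -0.53 over the 12 primordium groups and -0.52 over the 30 leaf groups. These correlations are descriptions, since groups share plants and genotypes.

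In apices BZIP61 fell with age in both genotypes and lay lower still in the miR156 mimic line. In the flc-3 mutant it read 9.00, 8.75 and 8.68 at day 4, 8.22 on the single day 6 array, 7.55, 7.69 and 8.31 at day 9, and 6.83, 6.44 and 6.90 at day 11. In FRI;FLC it read 8.37, 8.60 and 8.29 at day 4, 8.51 and 8.07 at day 6, 7.57, 7.20 and 7.73 at day 9, 6.66, 6.94 and 6.76 at day 11, 6.40, 5.78 and 6.11 at day 14, and 6.65, 5.91 and 5.87 at day 21. No array of day 11 or later overlapped those of day 4 in either genotype. The day 11 mean of the flc-3 mutant was 6.72, against 8.81 at day 4, a difference of -2.09 ± 0.25 (SE, limma adjusted p = 1.82e-07), in a comparison where 60.0% of all probe sets were called. The day 21 mean of FRI;FLC was 6.14, against 8.42 at day 4, a difference of -2.28 ± 0.25 (limma adjusted p = 2.63e-08, 50.1% of probe sets called), or 4.84-fold lower.

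The decline of BZIP61 came before day 14. Between days 4 and 9 it fell by 0.96 in the flc-3 mutant (limma adjusted p = 0.00362, 41.6% of probe sets called) and by 0.92 in FRI;FLC (0.00427, 48.6% called). Day 21 minus day 14 gave 0.04 ± 0.25 in FRI;FLC (limma adjusted p = 0.936). Over days 4 to 11 the same genotype gave -1.63 ± 0.25 (limma adjusted p = 5.89e-06, 60.4% called). With the length slope of each array as a covariate this last difference was -1.20 and missed the threshold (limma adjusted p = 0.0695). The other age falls of BZIP61 passed it, at -1.62 in the flc-3 mutant and -2.09 to day 21 in FRI;FLC. CLV3, the meristem's secreted stem cell signal, fell over the same ages, by 3.08 in the flc-3 mutant and by 2.01 in FRI;FLC to day 21. In pooled tissue fewer cells of a type and less RNA per cell cannot be told apart, and the part of CLV3's cells in the result was not tested.

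**Figure D1:**
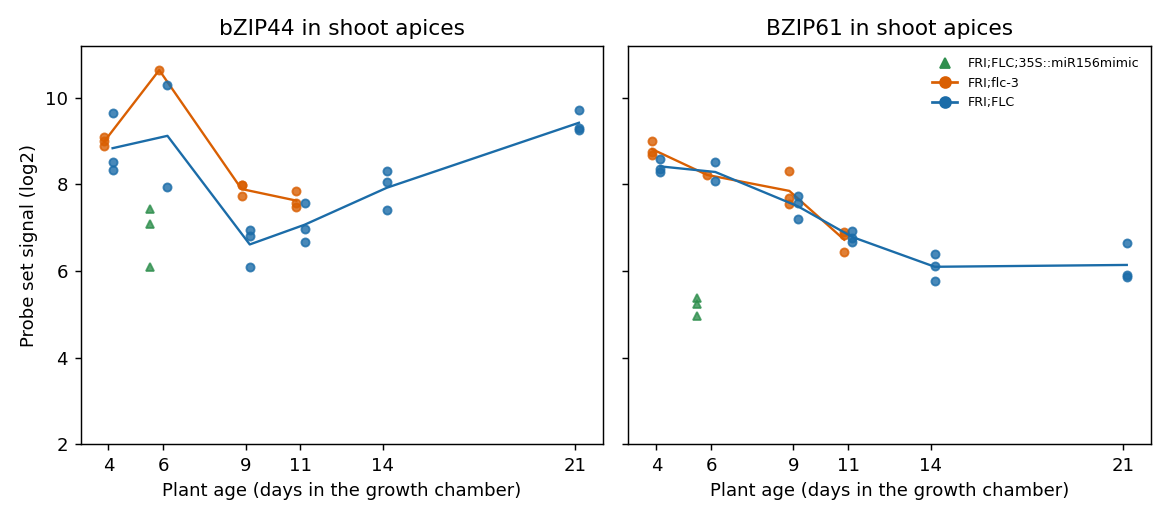
Log2 signal of bZIP44 (left) and BZIP61 (right) in shoot apices against plant age in days. Each point is 1 array of the mimic line (triangles), the flc-3 mutant or FRI;FLC, and lines join group means. BZIP61 fell until day 14 and was lowest in the mimic line at 5.19, while bZIP44 was lowest at day 9 in FRI;FLC and back at 9.43 by day 21.

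The mimic transgene produces a decoy target that binds miR156, the microRNA that is abundant in young shoots. At day 6 BZIP61 read 4.96, 5.37 and 5.24 in the mimic apices, against 8.51 and 8.07 in FRI;FLC apices. The difference was -3.10 ± 0.28 (limma adjusted p = 3.52e-09), or 8.57-fold lower, where 31.9% of probe sets were called. All 3 mimic arrays lay below every other apex array. With days 4 and 9 of FRI;FLC in place of the 2 day 6 arrays the difference was -2.77 (limma adjusted p = 1.82e-10). With the length slope as a covariate it was -2.81 (1.88e-06). CLV3 was also lower in the mimic apices, at 2.61 to 3.07, against 4.43 to 4.86 in FRI;FLC. Both measured leaf markers were higher there, RCA by 1.05 ± 0.18 (limma adjusted p = 7.32e-05) and SBPASE by 1.03 ± 0.20 (0.000462). The part of tissue makeup in the BZIP61 difference was not tested.

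bZIP44 in the same apices lay lower at day 9 than at day 4 in both genotypes and stood higher again at day 21 in FRI;FLC. In the flc-3 mutant it read 8.88, 9.10 and 9.01 at day 4, 10.64 at day 6, 7.98, 7.73 and 7.98 at day 9, and 7.84, 7.48 and 7.56 at day 11. In FRI;FLC it read 9.66, 8.34 and 8.51 at day 4, 10.31 and 7.94 at day 6, and 6.81, 6.94 and 6.09 at day 9. It then read 7.57, 6.67 and 6.97 at day 11, 8.31, 7.41 and 8.06 at day 14, and 9.31, 9.72 and 9.25 at day 21. The arrays of day 9 lay below all those of day 4 in both genotypes, and the day 21 arrays of FRI;FLC overlapped those of day 4. Day 11 minus day 4 was -1.37 ± 0.42 in the flc-3 mutant (limma adjusted p = 0.00679) and -1.77 ± 0.42 in FRI;FLC (0.000824). Day 21 minus day 14, in FRI;FLC alone, was 1.50 ± 0.42 (limma adjusted p = 0.015, 15.1% of probe sets called). Day 21 minus day 4 was 0.59 ± 0.42 and missed the threshold (0.252), and without replicate 1 it was 1.06 (0.0402). The fall in the flc-3 mutant was -1.33 without replicate 3 (0.0626).

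The length slope moved with these age differences of bZIP44. In the flc-3 mutant it lay between 0.318 and 0.345 at day 11, against -0.243 to -0.185 at day 4. The FRI;FLC apices lay between 0.337 and 0.395 at day 11, against -0.216 to -0.0771 at day 4. Within groups, an apex array with a steeper slope had less bZIP44 signal, with a Pearson's r of -0.812 over the deviations of 30 arrays from their group means. Only 2.00% of all probe sets had a lower r, and BZIP61 had -0.295. The 2 day 6 arrays of FRI;FLC lay furthest out, with slope deviations of -0.216 and 0.216 and bZIP44 deviations of 1.18 and -1.18. They weigh heavily in this r, which was not computed without them. The single day 6 array of the flc-3 mutant has no deviation by construction. With the slope as a covariate, day 11 minus day 4 of bZIP44 turned to 1.27 in the flc-3 mutant (limma adjusted p = 0.103) and to 0.67 in FRI;FLC (0.407), and day 21 minus day 4 became 1.65 (9.66e-05). Slope and age move together between groups, and their parts in the change between days 4 and 11 cannot be told apart.

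The mimic comparison of bZIP44 depended on 1 array. Mimic apices read 7.10, 7.44 and 6.09, against 10.31 and 7.94 in FRI;FLC, and the difference was -2.25 ± 0.47 (limma adjusted p = 0.000736). The higher of those arrays also had a length slope of -0.308, against 0.124 for its partner. Without it the difference was -1.06 (0.181), against days 4 and 9 it was -0.85 (0.0995), and with the slope as a covariate -0.62 (0.346). No genotype difference passed the test for either gene over the apices of days 4, 9 and 11, a comparison with 1.12% of probe sets called. The flc-3 mutant minus FRI;FLC was 0.67 ± 0.24 for bZIP44 (limma adjusted p = 0.257, positive at 3 of 3 ages) and 0.23 ± 0.15 for BZIP61 (0.597). The bZIP44 difference passed with only the compared groups in the fit (0.0482) and with array weights (0.0497), and with the length slope as a covariate it was 0.33 (0.401). The change from day 4 to day 11 did not pass a test between genotypes either, with 0.40 ± 0.59 for bZIP44 (limma interaction, adjusted p = 0.888, 0.476% called) and -0.46 ± 0.36 for BZIP61 (0.729).

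**Figure D2:**
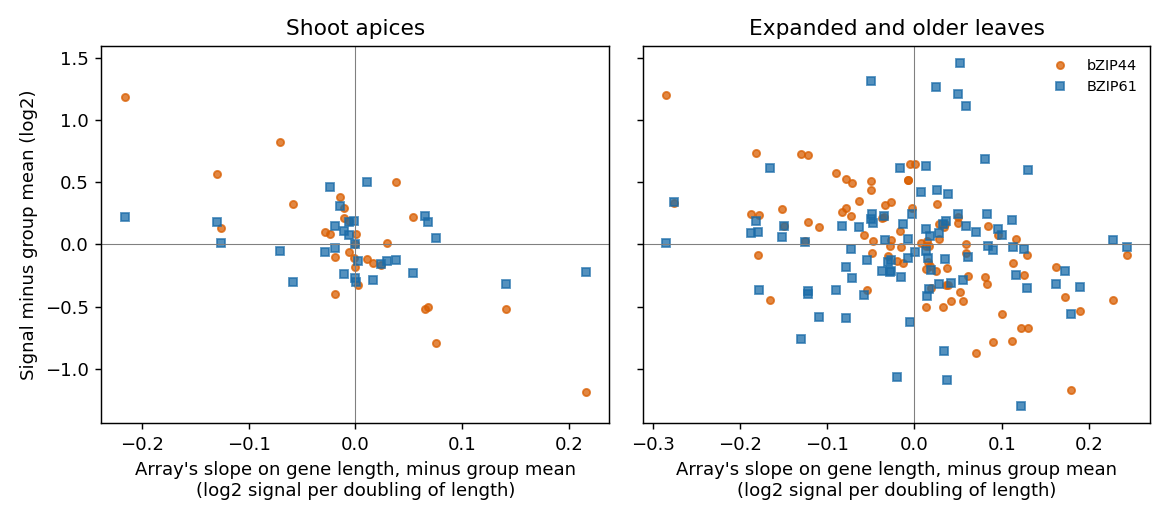
Deviation of the bZIP44 (circles) and BZIP61 (squares) log2 signal from the group mean, against the deviation of the array's slope of log2 signal on log2 gene length, for 30 apex arrays (left) and 90 leaf arrays (right). Each point is 1 array. bZIP44 falls to the right in both panels (r = -0.812 and -0.626), and BZIP61 shows r = -0.295 and -0.0074.

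In leaf primordia BZIP61 fell with position in both genotypes. In the flc-3 mutant it read 8.54, 8.70 and 8.37 in leaves 1/2, 6.45, 6.90 and 6.75 in leaf 3, 6.07, 6.68 and 6.41 in leaf 5, 5.82, 6.02 and 5.86 in leaf 7, 5.00, 4.73 and 4.92 in leaf 9, and 5.69, 5.69 and 5.36 in leaf 11. In FRI;FLC it read 8.81, 9.00 and 8.74 in leaves 1/2, 7.62, 6.82 and 7.44 in leaf 3, 6.55, 6.65 and 7.36 in leaf 5, 6.30, 6.44 and 5.79 in leaf 7, 5.33, 5.61 and 5.38 in leaf 9, and 5.14, 4.44 and 4.99 in leaf 11. Leaves 1/2 stood above every other primordium, and only the flc-3 mutant turned upward at leaf 11.

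Leaf 11 minus leaves 1/2 of BZIP61 was -2.96 ± 0.22 in the flc-3 mutant (limma adjusted p = 9.75e-14, 26.5% of probe sets called), or 7.78-fold lower. It was -4.00 ± 0.22 in FRI;FLC (2.65e-17, 44.2% called), or 15.9-fold lower. The steepest step was the lowest one, leaf 3 minus leaves 1/2, with -1.84 in the flc-3 mutant (1.91e-07, 5.86% called) and -1.56 in FRI;FLC (3.99e-06, 11.7% called). Leaf 11 minus leaf 9 was 0.69 ± 0.22 in the flc-3 mutant (limma adjusted p = 0.0442, 7.01% called) and -0.58 ± 0.22 in FRI;FLC (0.0895, 8.32% called). The genotypes thus differed in the change from leaves 1/2 to leaf 11, by 1.04 ± 0.31 (limma interaction, adjusted p = 0.0144, 19.6% called). Leaving out replicate 2 gave 0.78 (0.15) and leaving out replicate 1 gave 1.14 (0.057). Leaf 11 was a cauline leaf in the flc-3 mutant and a rosette leaf in FRI;FLC, so genotype and leaf type cannot be told apart there.

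bZIP44 was low in all primordia, at the percentiles 19.3 to 28.9 of its arrays, and rose with position in the flc-3 mutant. The sizes of its differences there are limited by the low end of the signal scale. In the flc-3 mutant it read 2.69, 2.74 and 2.78 in leaves 1/2, 2.97, 3.24 and 3.33 in leaf 3, 3.06, 3.75 and 3.44 in leaf 5, 3.97, 4.15 and 4.07 in leaf 7, 3.68, 3.31 and 4.24 in leaf 9, and 4.31, 3.90 and 4.09 in leaf 11. In FRI;FLC it read 2.93, 2.65 and 2.57 in leaves 1/2, 3.31, 3.12 and 2.93 in leaf 3, 3.16, 2.98 and 3.13 in leaf 5, 3.52, 3.47 and 3.49 in leaf 7, 3.28, 2.98 and 2.48 in leaf 9, and 2.82, 2.85 and 2.87 in leaf 11. The 2 genotypes overlapped in leaves 1/2, 3 and 5 and did not overlap in leaves 7, 9 and 11. In leaf 9 they nearly met, with a lowest flc-3 mutant array of 3.31 and a highest FRI;FLC array of 3.28. The share of all probe sets without overlap at these positions is not given here, so the separation is a description.

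Leaf 11 minus leaves 1/2 of bZIP44 was 1.36 ± 0.18 in the flc-3 mutant (limma adjusted p = 2.61e-07) and 0.13 ± 0.18 in FRI;FLC (0.615). The difference between those changes was 1.24 ± 0.26 (limma interaction, adjusted p = 0.000623). Leaf 11 was cauline in the flc-3 mutant alone, so genotype and leaf type cannot be told apart wherever leaf 11 enters. Over the 6 positions the flc-3 mutant averaged 3.54 and FRI;FLC 3.03, a difference of 0.51 ± 0.08 (limma adjusted p = 1.67e-06) that was positive at 6 of 6 positions, where 21.3% of probe sets were called. It was 0.83 in leaf 9 (limma adjusted p = 0.00191, 7.80% called) and 1.25 in leaf 11 (1.21e-06, 31.9% called), or 2.39-fold higher in the flc-3 mutant. The length slopes of the primordium arrays did not follow bZIP44 within groups (r = 0.0782, 36 arrays), and the genotype difference was 0.49 with the slope as a covariate.

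The mean genotype difference of BZIP61 in primordia had the opposite sign. The flc-3 mutant averaged 6.33 and FRI;FLC 6.58, a difference of -0.25 ± 0.09 (limma adjusted p = 0.0407), which missed the threshold without replicate 1 (-0.19, adjusted p = 0.301) and without replicate 3 (-0.20, 0.267). It was negative at 5 of 6 positions, and at none of those 5 did it pass the test alone. In leaf 11, cauline in the flc-3 mutant and rosette in FRI;FLC, the flc-3 mutant was higher by 0.72 ± 0.22 (limma adjusted p = 0.00951).

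**Figure D3:**
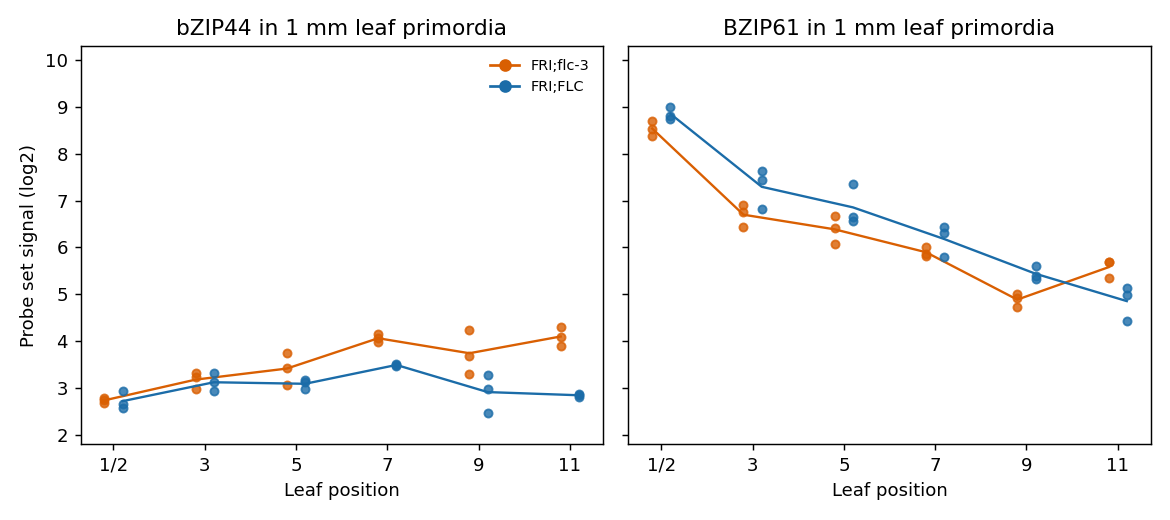
Log2 signal of bZIP44 (left) and BZIP61 (right) in 1 mm leaf primordia against leaf position. Each point is 1 array of the flc-3 mutant or FRI;FLC, and lines join group means. BZIP61 falls with position in both genotypes and turns up at leaf 11 in the flc-3 mutant, while bZIP44 at leaf 11 reaches 4.10 in the flc-3 mutant and 2.85 in the other genotype.

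In fully expanded leaves bZIP44 was higher in the flc-3 mutant at each position of both experiments. In experiment 1 the flc-3 mutant read 3.77, 4.25 and 4.28 in leaves 1/2, 4.14, 4.83 and 4.56 in leaf 3, 4.09, 4.43 and 3.73 in leaf 5, 4.67, 4.54 and 4.85 in leaf 7, and 6.47, 7.46 and 6.28 in leaf 9. FRI;FLC read 2.80, 3.18 and 3.15 in leaves 1/2, 2.90, 3.21 and 2.86 in leaf 3, 3.10, 2.40 and 3.72 in leaf 5, 3.05, 2.98 and 2.69 in leaf 7, and 2.84, 3.19 and 4.82 in leaf 9. In this experiment the flc-3 mutant lay between 3.73 and 4.85 up to leaf 7 and at 6.28 or more in leaf 9.

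In experiment 2 the step came at a lower leaf, on plants that were older at that leaf. The flc-3 mutant read 3.74, 3.88 and 3.52 in leaves 1/2, 5.32, 4.30 and 4.79 in leaf 3, 4.75, 4.75 and 4.79 in leaf 5, 6.70, 5.87 and 6.65 in leaf 7, and 7.59, 7.88 and 5.98 in leaf 9. FRI;FLC read 2.68, 3.14 and 2.65 in leaves 1/2, 3.60, 3.21 and 3.76 in leaf 3, 3.75, 2.84 and 3.61 in leaf 5, 2.98, 3.49 and 3.98 in leaf 7, and 4.91, 4.30 and 3.94 in leaf 9. Leaf 7 of the flc-3 mutant was 6.41 in experiment 2, at day 29, and 4.69 in experiment 1, at day 26, with no overlap of arrays. SAG29 moved the same way there, with 5.17 in experiment 2 and 2.26 in experiment 1. Over both experiments the genotype difference, which chose the gene, was 1.77 ± 0.13, from 0.89 in leaves 1/2 of experiment 2 to 3.12 in leaf 9 of experiment 1. In that comparison 34.0% of probe sets were called. The same sign in every position and experiment pair was a condition of the choice. In leaf 5 of experiment 1 the genotypes nearly met, with a lowest flc-3 mutant array of 3.73 and a highest FRI;FLC array of 3.72.

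The change of bZIP44 with position was not the contrast that chose the gene. Leaf 9 minus leaves 1/2 was 3.04 ± 0.28 in the flc-3 mutant (limma adjusted p = 3.13e-14, 43.5% of probe sets called), or 8.21-fold higher, and every leaf 9 array stood above every array of leaves 1/2. It was 1.06 ± 0.28 in FRI;FLC (0.00145, 43.3% called), and there experiment 1 alone gave 0.57 (0.309, 26.5% called). These changes differed by 1.97 ± 0.40 (limma interaction, adjusted p = 0.000568, 6.52% called), which without replicate 2 was 1.45 (0.0713). With the length slope as a covariate the changes were 2.58 in the flc-3 mutant and 0.64 in FRI;FLC, and both were called. bZIP44 in leaves 1/2 to 7 of FRI;FLC sat at the percentiles 20.7 to 26.7 of its arrays, near the low end of the signal scale. The sizes of these changes, and of the genotype difference above, are limited by it. The senescence marker SAG29 rose in the same comparison, by 3.67 ± 0.56 in the flc-3 mutant (limma adjusted p = 1.27e-07), against 0.23 in FRI;FLC (0.78), and these changes differed by 3.44 ± 0.79 (limma interaction, adjusted p = 0.00263). Over all expanded leaves SAG29 was higher in the flc-3 mutant by 0.94 ± 0.25 (limma adjusted p = 0.00229).

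Cauline leaf 11 of the flc-3 mutant held bZIP44 at 8.10, 6.69 and 7.29 in experiment 1 and at 6.29, 7.24 and 6.48 in experiment 2. Rosette leaf 11 of FRI;FLC held it at 3.23, 3.26 and 3.75 in experiment 1 and at 4.48, 4.34 and 3.74 in experiment 2. The difference was 3.21 ± 0.28 (limma adjusted p = 2.55e-15, 38.3% of probe sets called), or 9.29-fold higher, and the arrays did not overlap. Rosette leaf 11 sat at the percentiles 25.6 and 31.5 of its arrays in experiments 1 and 2, so the low end of the signal scale may limit this size. SAG29 was higher in the same leaves, by 4.22 ± 0.56 (limma adjusted p = 3.39e-09), with means in the cauline leaf of 3.69 in experiment 1 and 8.84 in experiment 2. Cauline leaf 11 minus rosette leaf 9 within the flc-3 mutant was 0.62 in experiment 1 and -0.48 in experiment 2. In that last comparison, given as a description, 18.8% of probe sets were called. Leaf 9 means were 6.94 in the flc-3 mutant and 4.00 in FRI;FLC.

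BZIP61 fell with position in expanded leaves, and its level depended on the experiment. In experiment 1 the flc-3 mutant read 8.31, 7.89 and 7.50 in leaves 1/2, 5.82, 6.38 and 5.63 in leaf 3, 7.21, 6.57 and 6.58 in leaf 5, 6.36, 6.79 and 6.71 in leaf 7, 5.64, 4.58 and 4.64 in leaf 9, and 4.35, 2.86 and 5.28 in leaf 11. FRI;FLC read 8.08, 7.54 and 8.74 in leaves 1/2, 4.69, 6.04 and 3.77 in leaf 3, 4.62, 5.19 and 3.97 in leaf 5, 4.89, 5.34 and 7.01 in leaf 7, 2.82, 2.40 and 2.63 in leaf 9, and 2.51, 2.81 and 3.16 in leaf 11. Its leaves 9 and 11 had the lowest means of this experiment.

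In experiment 2 BZIP61 descended more evenly. The flc-3 mutant read 10.03, 9.75 and 9.81 in leaves 1/2, 7.63, 7.59 and 7.07 in leaf 3, 6.59, 5.73 and 5.54 in leaf 5, 5.54, 4.96 and 5.39 in leaf 7, 5.66, 3.58 and 3.79 in leaf 9, and 5.30, 3.47 and 2.75 in leaf 11. FRI;FLC read 9.75, 9.89 and 9.92 in leaves 1/2, 7.62, 7.75 and 7.13 in leaf 3, 6.95, 6.89 and 6.60 in leaf 5, 6.74, 6.77 and 6.35 in leaf 7, 3.00, 3.57 and 4.21 in leaf 9, and 3.88, 4.22 and 4.10 in leaf 11. Experiment 2 minus experiment 1 was 1.96 in the flc-3 mutant and 1.73 in FRI;FLC in leaves 1/2, without overlap. It was -1.32 in leaf 7 of the flc-3 mutant and 2.67 in leaf 3 of FRI;FLC. Leaf 9 minus leaves 1/2, which chose the gene, was -4.23 ± 0.33 in the flc-3 mutant (-2.94 in experiment 1 and -5.52 in experiment 2) and -5.88 ± 0.33 in FRI;FLC. Leaf 9 of FRI;FLC sat at the percentiles 18.7 and 27.5 of its arrays in experiments 1 and 2. The low end of the signal scale may therefore limit the size of its fall and the gap between the genotypes.

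The genotype difference of BZIP61 in expanded leaves passed the test in experiment 1 and not in experiment 2. Over both it was 0.48 ± 0.15 (limma adjusted p = 0.00854), positive in 6 of 10 position and experiment pairs, and without replicate 1 it was 0.24 (0.353). Experiment 1 gave 1.26 ± 0.21 (limma adjusted p = 3.79e-06, 27.5% of probe sets called) and experiment 2 gave -0.30 ± 0.21 (0.376, 15.5% called). The experiments differed by 1.56 ± 0.30 (limma interaction, adjusted p = 0.000592, 3.21% called), a test added after the data had been seen. The mutant plants of leaves 3 to 9 were 2 to 3 days younger than their controls in experiment 1 and of equal age or 1 day younger in experiment 2. Genotype and plant age cannot be told apart in experiment 1. There leaf 9 of FRI;FLC lay near the low end of the signal scale, which may limit the size of the difference. The widest positive difference that the choice of the gene left testable was leaf 5 of experiment 1, with 6.79 in the flc-3 mutant and 4.59 in FRI;FLC (2.19 ± 0.47, limma adjusted p = 0.00156, 5.02% of probe sets called). Leaf 7 of experiment 2 gave -1.32 ± 0.47 (0.0975, 3.72% called). Leaf 11 gave 0.55 ± 0.33 for cauline leaves of the flc-3 mutant against rosette leaves of the other genotype (0.188), with 1.34 in experiment 1 and -0.23 in experiment 2.

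**Figure D4:**
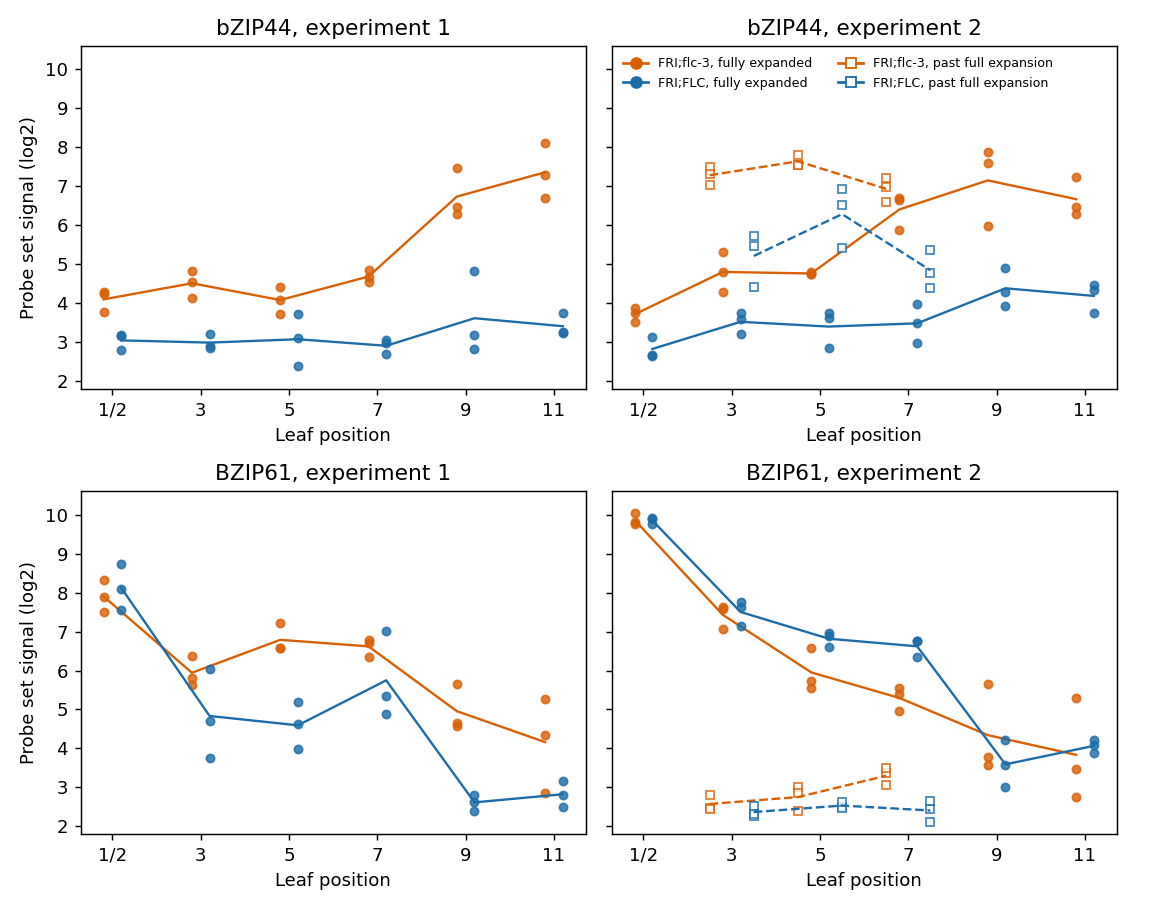
Log2 signal of bZIP44 (top) and BZIP61 (bottom) in fully expanded leaves of experiments 1 (left) and 2 (right) and in leaves past full expansion (open squares, experiment 2), against leaf position. Each point is 1 array of the flc-3 mutant or FRI;FLC, and lines join group means. bZIP44 is higher in the flc-3 mutant at all positions and higher again past full expansion, where BZIP61 lies between 2.12 and 3.49.

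Leaves 3, 5 and 7 past full expansion were taken on the day that leaf 9 reached it, day 32 in the flc-3 mutant and day 33 in FRI;FLC. bZIP44 read 7.50, 7.03 and 7.32 in leaf 3 of the flc-3 mutant, 7.55, 7.81 and 7.56 in leaf 5, and 7.22, 6.98 and 6.60 in leaf 7. In FRI;FLC it read 5.48, 5.73 and 4.43 in leaf 3, 6.52, 6.93 and 5.41 in leaf 5, and 5.37, 4.78 and 4.39 in leaf 7. Each leaf was higher in the flc-3 mutant without overlap. The difference was 1.84 ± 0.23 (limma adjusted p = 1.46e-09, 31.7% of probe sets called), or 3.57-fold. It was 2.07 in leaf 3, 1.36 in leaf 5 and 2.09 in leaf 7. The fit counted all these arrays as independent, although the leaves of a genotype were taken on the same day. In FRI;FLC replicate 3 was the lowest array of leaf 3, of leaf 5 and of leaf 7. The SE and p may therefore be too small. These arrays were outside the contrast that chose the gene, but they shared its fit and its estimate of the spread.

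Relative to the same leaves at full expansion, bZIP44 rose past it. Over both genotypes leaves past full expansion averaged 6.37 and fully expanded leaves 4.40, a difference of 1.97 ± 0.16 (limma adjusted p = 1.21e-16, 43.4% of probe sets called) that was positive in 6 of 6 leaf and genotype pairs and smallest in leaf 7 of the flc-3 mutant, where the arrays overlapped. This average over genotypes was added after the data had been seen. Its arrays past full expansion were also counted as independent, so its SE and p may be too small. The difference was 1.96 in the flc-3 mutant (30.5% of probe sets called) and 1.98 in FRI;FLC (34.7% called), both as descriptions. With the length slope as a covariate the average was 1.84.

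BZIP61 had its lowest medians in the same leaves. It read 2.80, 2.48 and 2.45 in leaf 3 of the flc-3 mutant, 2.40, 3.00 and 2.86 in leaf 5, and 3.36, 3.05 and 3.49 in leaf 7. In FRI;FLC it read 2.52, 2.26 and 2.33 in leaf 3, 2.50, 2.48 and 2.63 in leaf 5, and 2.45, 2.65 and 2.12 in leaf 7. These levels sat at the percentiles 15.8 to 25.4 of their arrays. The change from full expansion, which chose the gene, was -3.35 ± 0.27 in the flc-3 mutant and -4.54 ± 0.27 in FRI;FLC. With the later values this close to the low end of the signal scale, the sizes of these falls and the gap between them are limited by it. The changes differed by 1.19 ± 0.38 (limma interaction, adjusted p = 0.041, 7.00% of probe sets called), and without any 1 replicate this missed the threshold (0.0854 to 0.383). The genotype difference past full expansion was 0.44 ± 0.27 (limma adjusted p = 0.224).

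SAG29, a sugar transporter gene that rises in senescing leaves, and PRODH2, a proline dehydrogenase gene listed with the low-energy genes, were read in the same leaves. Past full expansion SAG29 lay between 8.46 and 11.11 in the flc-3 mutant and between 2.66 and 10.61 in FRI;FLC, a difference of 3.22 ± 0.46 (limma adjusted p = 3.85e-08). Relative to full expansion it rose by 6.90 in the flc-3 mutant and 4.70 in the other genotype. In expanded leaf 9 of the flc-3 mutant SAG29 was between 7.52 and 9.49 in experiment 2 and between 2.40 and 3.11 in experiment 1, and bZIP44 averaged 7.15 in experiment 2 and 6.74 in experiment 1. Past full expansion in FRI;FLC, leaf 5 had the highest mean of both genes, 9.27 for SAG29 and 6.29 for bZIP44. The part of senescing cells in the levels of bZIP44 was not tested. PRODH2 was higher in the flc-3 mutant past full expansion, by 3.62 ± 0.37 (limma adjusted p = 1.6e-12), and rose with position in expanded leaves of the flc-3 mutant by 2.12 ± 0.45 (7.66e-05) against -0.61 in FRI;FLC (0.282), a difference between genotypes of 2.73 ± 0.63 (limma interaction, adjusted p = 0.00313). Past full expansion it rose in the flc-3 mutant by 1.88 (2.86e-05), against 0.13 in the other genotype (0.817). PRODH2 and SEN5 were the 2 of 13 low-energy genes that were measured. SEN5, a gene induced in darkness, was higher in the flc-3 mutant in expanded leaves, by 0.52 ± 0.13 (limma adjusted p = 0.00159), and fell past full expansion by 0.76 in the mutant (0.0128) and by 0.88 in its control (0.00307). Of 3 SnRK1 subunit genes AKINBETA1, a beta subunit, was measured. It was higher in the mimic apices by 1.44 ± 0.13 (limma adjusted p = 3.93e-09) and fell past full expansion by 0.84 in the flc-3 mutant (8.24e-08) and by 1.02 in FRI;FLC (3.36e-10). Between genotypes it was called higher in the flc-3 mutant in expanded leaves (0.285), past full expansion (0.391) and in cauline against rosette leaf 11 (0.599). The genotype difference was not called in apices (0.15) or primordia (0.0936).

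Full expansion was compared with the 1 mm primordium in experiment 1, where 88.0% of probe sets were called. BZIP61 averaged 5.81 in expanded leaves and 6.70 in primordia (-0.89 ± 0.13, limma adjusted p = 1.51e-08). The change differed between the genotypes by 1.70 ± 0.26 (limma interaction, adjusted p = 3.55e-06, 14.7% called). In leaf 3 the flc-3 mutant gave -0.76 (limma adjusted p = 0.108, 63.8% called), while BZIP61 fell by 2.46 in FRI;FLC (7.83e-07, 66.2% called). In leaf 5 the flc-3 mutant gave 0.40 (limma adjusted p = 0.408, 64.3% called), while BZIP61 fell by 2.26 in FRI;FLC (4.33e-06, 65.3% called). Those expanded leaves of FRI;FLC were the low ones of experiment 1 described above, from plants 2 days older than the mutant plants.

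bZIP44 averaged 3.97 in expanded leaves and 3.25 in primordia (0.73 ± 0.10, limma adjusted p = 1.32e-09). The length slopes of all primordium arrays of experiment 1 lay above those of all its expanded leaf arrays, and with the slope as a covariate the difference was -0.15 (0.465). The covariate assumes 1 relation for all arrays, while within groups r was 0.0782 in primordia and -0.626 over all leaf arrays. Slope and stage do not overlap, and their parts in the difference cannot be told apart. The change was larger in leaf 9 than in leaves 1/2, by 1.00 ± 0.31 (limma interaction, adjusted p = 0.00956, 32.6% called), without replicate 2 by 0.92 (0.0808), and with array weights by 0.63 (0.017). By genotype it ran from 0.62 in leaf 7 to 2.99 in leaf 9 in the flc-3 mutant and from -0.58 in leaf 7 to 0.70 in leaf 9 in FRI;FLC. This contrast of genotypes shares the expanded leaves that chose bZIP44.

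Ordered by level within an organ, most neighbouring groups overlapped, which sorting by mean favours for any probe set. The counts are descriptions and were not set against those of other probe sets. For bZIP44 the arrays of 8 of 10 neighbouring pairs of apex groups, 10 of 11 pairs of primordium groups and 29 of 29 pairs of leaf groups overlapped. Its apex order opened with the single flc-3 mutant array of day 6 (10.64) and FRI;FLC at day 21 (9.43), and closed with the mimic line (6.88) and FRI;FLC at day 9 (6.61). For BZIP61 the counts were 7 of 10, 7 of 11 and 27 of 29. Among leaves it opened with both leaves 1/2 groups of experiment 2 (9.86 in the flc-3 mutant and 9.85 in FRI;FLC), which stood apart from the next group at 8.12.

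Of the other bZIP genes listed, 18 were measured. Besides bZIP44, 1 of the 4 other group S1 genes was (bZIP53), as were 0 of 4 group C genes, the partners of group S1. bZIP53 had medians of 11.19 in apices, 11.11 in primordia, 11.14 in expanded leaves and 11.40 past full expansion, and its widest difference among the 3 age comparisons was -0.64 ± 0.13 (limma adjusted p = 0.000109), between days 4 and 11 in FRI;FLC. Among the 18 genes, 5 rose and 2 fell with position in flc-3 mutant primordia, where 14.3% of all probe sets rose and 12.2% fell. In FRI;FLC 2 rose and 5 fell, where 23.0% of all probe sets rose and 21.2% fell. Their median difference was -0.04 in each, against a median over all probe sets of 0.03 in the flc-3 mutant and 0.01 in FRI;FLC. BZIP34 had the lowest difference of the 18 in both, and EEL, a group A factor, the highest (1.15 in the flc-3 mutant and 1.08 in FRI;FLC). In expanded leaves 4 rose and 3 fell with position in the flc-3 mutant (43.5% of all probe sets called), and 5 rose and 5 fell in FRI;FLC (43.3% called).

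BZIP34, the other group E gene, fell with age, with position and past full expansion, and was lower in the mimic line, as BZIP61 was. Its position difference in primordia was -2.78 ± 0.25 in the flc-3 mutant (limma adjusted p = 3.1e-11) and -3.25 ± 0.25 in FRI;FLC (4.19e-13). In expanded leaves it was -3.42 ± 0.26 in the flc-3 mutant (9.18e-18) and -3.75 ± 0.26 in FRI;FLC (1.63e-19). With age in apices BZIP34 fell by 3.48 in the flc-3 mutant and by 3.95 in FRI;FLC, and in mimic apices it was 3.10 to 3.84, against 4.71 to 6.41 in FRI;FLC (-1.98 ± 0.37, limma adjusted p = 0.000265). Past full expansion it fell by 1.60 in the flc-3 mutant and by 1.91 in FRI;FLC. In expanded leaves the flc-3 mutant minus FRI;FLC was 0.45 ± 0.12 for BZIP34 (0.0018). Experiment 1 gave 0.97 ± 0.16 (limma adjusted p = 6.15e-06) and experiment 2 gave -0.07 ± 0.16 (0.835), which differed by 1.04 ± 0.23 (limma interaction, adjusted p = 0.00427).

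By likeness of pattern over the 53 group means, among 10917 single-gene probe sets, BZIP61 was nearest to AT1G22330 (2 probe sets, r = 0.917 and 0.903), BZIP34 (0.885), AT3G06770 (0.867) and EXPB1 (0.864), a beta-expansin gene. With the mean of each organ class removed AT1G22330 (0.966 and 0.957) and BZIP34 (0.917) stayed at the top. The r of BZIP61 with BZIP34 was 0.906 over 11 apex groups, 0.973 over 12 primordium groups and 0.961 over 30 leaf groups. bZIP44 was nearest to AT5G62150 (0.878), AT4G31140 (0.863), AT2G18780 (0.860), SP1L2 (0.854) and AT3G62960 (0.848), and most opposed to FTSZ2-2 (-0.884), a plastid division gene. With organ means removed AT1G31750 (0.879) was nearest. These r are descriptions over groups that share plants, collection and array processing.

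**Figure D5:**
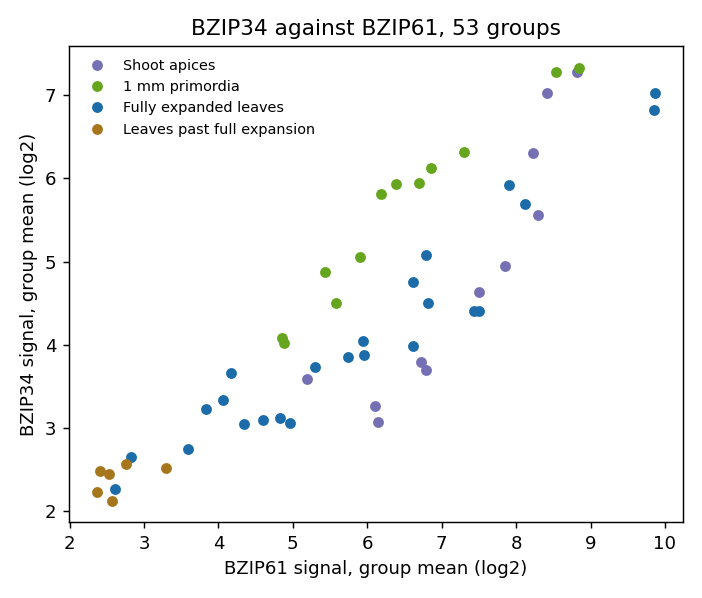
Group mean log2 signal of BZIP34 against that of BZIP61 in 53 groups, coloured by organ. Each point is 1 group. The groups of every organ rise together, with leaves past full expansion at the bottom left and leaves 1/2 at the top right, and primordia lie above expanded leaves of like BZIP61 level.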

How the data were processed

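Deposited log2 signals of 19324 probe sets, measured on all arrays from biotin-labelled polyA RNA, were used as the authors made them. The tools listed by the submitters' processing notes are GCRMA and MAS5. Roles, versions and any filter were not given in the sources used here. Probe sets were named from the platform's gene table, in which 10918 have 1 gene, 407 have several and the others are not listed. limma 3.58.1 in R 4.3.3 was run on 4 sets of arrays (30 of apices, 36 of primordia, 90 of leaves, 72 for the stage comparison), with 1 coefficient per group, a variance trend, two-sided tests and Benjamini-Hochberg adjustment over all probe sets. It was tested on simulated data. Groups of 1 or 2 arrays were assumed to vary like the others of their set. A contrast over several days, positions or experiments is the mean of the differences within them. The members, gene lists and rules were chosen with earlier results of these data known. Genes of like pattern were the 5 highest and 3 lowest correlations. Comparisons whose contrast shares information with those that had named a gene were not tested. Array signal gives no molecule count, so the number of arrays limits precision. Of 51 pairs of groups, 2 had all same-numbered arrays correlated over 0.1 in their deviations. Replicate numbers were therefore not taken to pair arrays. The pairs were the sides of the comparisons. Among leaves of the same genotype and day they held only leaf 11 with leaf 9 of the flc-3 mutant. There 1 of 2 pairs was over 0.1. Leaves past full expansion were not compared with each other. Whether same-numbered arrays go together in other leaves of the same day was thus not tested. Sequences of the genes were not used here.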

Additional observations from a re-analysis of the deposited data

Results flagged for a closer look

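The effects below differed between genotypes or positions by a test of the difference itself. In primordia the change from leaves 1/2 to leaf 11 was higher in the flc-3 mutant than in FRI;FLC by 1.24 for bZIP44 (limma interaction, adjusted p = 0.000623) and by 1.04 for BZIP61 (0.0144), on the log2 scale. Leaf 11 was cauline in the flc-3 mutant alone, so genotype and leaf type cannot be told apart there. The bZIP44 levels in primordia lay near the low end of the signal scale. In expanded leaves the change from leaves 1/2 to leaf 9 was higher in the flc-3 mutant by 1.97 for bZIP44 (0.000568), with leaves 1/2 of FRI;FLC near the low end of the signal scale. The change past full expansion of BZIP61 was higher, that is a smaller fall, in the flc-3 mutant by 1.19 (0.041), with levels near the low end of the signal scale. Its change from primordium to full expansion was higher in the flc-3 mutant by 1.70 (3.55e-06), in experiment 1, where the mutant plants of expanded leaves 3 to 9 were 2 to 3 days younger. The BZIP61 genotype difference in expanded leaves was 1.26 in experiment 1 and -0.30 in experiment 2. The change of bZIP44 from primordium to full expansion was higher in leaf 9 than in leaves 1/2 by 1.00 (0.00956). Leaving out 1 replicate number raised this limma adjusted p to as much as 0.0808. It reached 0.15 for BZIP61 in primordia and 0.0713 for bZIP44 in expanded leaves. For BZIP61 past full expansion it was 0.0854 to 0.383. The threshold still held for bZIP44 in primordia (at most 0.0398) and for BZIP61 from primordium to full expansion (at most 0.0159).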

How the results depend on the processing

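Of 612 values recomputed under 20 settings, 577 counted as unchanged and 35 did not. Unchanged meant the same direction and side of the threshold, or a move of less than the replicate SD where untested. A tested value that missed the threshold both times also counted as unchanged if its direction turned. BZIP61 in leaf 11 was such a value, with 0.55 turning to -0.23 in experiment 2 alone. The slope covariate was added after the data had been seen. Adjusted p from limma are in parentheses. For bZIP44, day 11 minus day 4 turned to 1.27 (0.103) in the flc-3 mutant and 0.67 (0.407) in FRI;FLC, day 21 minus day 4 became 1.65 (9.66e-05), the mimic difference -0.62 (0.346), the genotype difference in apices 0.33 (0.401) and expanded leaf minus primordium -0.15 (0.465), all with that covariate. Its stage by position difference was 0.63 (0.017) with array weights. BZIP61 became -1.20 (0.0695) for FRI;FLC to day 11 and -0.17 (0.252) for genotype in primordia. The bZIP44 genotype difference in apices was called with array weights (0.66, 0.0497) and with only the groups compared (0.67, 0.0482). Its mimic difference missed the threshold with only the groups compared (-2.25, 0.131), with days 4 and 9 (-0.85, 0.0995) and without FRI;FLC replicate 1 (-1.06, 0.181). In experiment 2 alone the BZIP61 genotype difference in expanded leaves was -0.30 (0.376), and its position difference in the flc-3 mutant was -5.52, with -2.94 in experiment 1. Experiment 1 alone gave 0.57 (0.309) for bZIP44 position in FRI;FLC, 1.34 (0.0151) for BZIP61 in leaf 11 (0.74, 0.0352 with array weights) and 0.62 for bZIP44 in leaf 11 minus leaf 9 of the flc-3 mutant, with -0.48 in experiment 2. BZIP61 genotype past full expansion was called with only the groups compared (0.44, 0.00352). The cause was not tested.

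Leaving out each replicate number gave, for bZIP44, 0.19 to 1.06 for FRI;FLC age to day 21, -1.53 to -1.24 for the flc-3 mutant age, -3.72 to -1.18 for the mimic, 1.45 to 2.58 for position by genotype in expanded leaves, 1.65 to 2.49 past full expansion in FRI;FLC, and 0.92 to 1.16 for stage by position. For BZIP61 it gave -0.35 to -0.19 for genotype and 0.78 to 1.19 for position by genotype in primordia, 0.24 to 0.60 for genotype in expanded leaves, and 1.08 to 1.35 for past full expansion by genotype. The replicate block changed 0 of 52 results: the bZIP44 genotype difference in primordia stayed at 0.51 (3.45e-06). Both genes lie under the median signal filter and so have no value there.

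The number of probe sets called moved by over 1.5 times under some setting in every comparison. Some settings kept only probe sets with a mean above the median, or only the 10857 of known length. A lower count there follows from testing fewer probe sets and does not show instability. The counts below come from settings that tested all 19324. It reached 56 without replicate 3 and 464 with array weights for genotype in apices (216 as reported), 588 with only the groups compared for the mimic (6164), and 1775 with the slope covariate for age in apices of the flc-3 mutant (11595). It reached 294 without replicate 2 and 4026 with array weights for past full expansion by genotype (1352), and 578 without replicate 1 and 3288 with array weights for position by genotype in expanded leaves (1259). A further alternative, other probe sets of the genes, was not run because each has 1.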
